A study of Gallus gallus with 58 samples.

Results

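The suppressors of cytokine signalling (SOCS) are represented here by 7 genes, SOCS1, SOCS2, SOCS3, SOCS4, SOCS5, SOCS6 and CISH, out of 11528 genes named on the array. A gene was taken as a member where the platform table gave its symbol, and no other symbol, for a probe set, the group of probes that reports 1 transcript. Each of the 7 genes had exactly 1 such probe set among the 20804 in the table. These were probe sets 15428064 (SOCS1), 15386842 (SOCS2), 15441635 (SOCS3), 15524412 (SOCS4), 15487566 (SOCS5), 15461242 (SOCS6) and 15420750 (CISH). A probe set named SOCS1L was kept apart as a gene of its own.

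Chicks were injected on the day of hatch with CpG-ODN 2007, a short DNA that activates the chicken receptor TLR21 per the labels, or served as controls, whose injection the labels do not describe. Whole blood was collected 3 h, 3 days (D3) or 6 days (D6) later, each time from other chicks, and 1 array was run per chick. The groups were control blood at 3 h (10 chicks), CpG blood at 3 h (10), control blood at D3 (8), CpG blood at D3 (8), control blood at D6 (12) and CpG blood at D6 (10). Breed and sex are not stated in the labels, and within a treatment the age of the chicks and the day of sampling cannot be told apart. Values are log2 expression values from robust multi-array averaging (RMA), so that a difference of 1 is a doubling. They allow a gene to be compared between chicks, but not the level of 1 gene with that of another.

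SOCS proteins are made in response to cytokines and switch the cytokine signal off again. A cytokine receptor activates JAK kinases, these activate STAT transcription factors, and STATs switch on SOCS genes, whose proteins bind the receptor or the kinase through an SH2 domain and recruit a ubiquitin ligase through the SOCS box. In mammals SOCS1 chiefly limits interferon signalling, SOCS3 limits the signals of IL6 and G-CSF, CISH and SOCS2 act on STAT5-linked receptors such as those of growth hormone and IL2, and SOCS4, SOCS5 and SOCS6 have mainly been linked to receptor tyrosine kinases.

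Array medians lay between 6.64 and 6.78. Within its group, each array was scored by its median correlation to fellow arrays, and 4 arrays stood below the rest, namely control chick 74 at 3 h (0.946), control chick 86 at D3 (0.947), CpG chick 20 at D3 (0.959) and CpG chick 31 at D6 (0.942). Where the call of a difference given here changed without these arrays, the value without them stands beside it. These refits covered the members, the pathway genes and the genes most like the members. They did not cover the cell type markers or the counts of group pairs that passed. The label of whole blood was checked against marker genes. All 14 measured erythroid genes were bright in every group (chicken red cells keep their nucleus), and the lowest of them, HBZ, had group means from 8.25 to 9.09. Markers of heterophils, the avian counterpart of neutrophils, of monocytes, thrombocytes, B cells and T cells were measured as well. In whole blood, fewer cells of a type and less RNA per cell cannot be told apart.

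SOCS1 varied most between chicks. After the group means were subtracted its SD was 0.68, larger than that of 97.7% of all probe sets, and its values spanned 3.55 log2 units over the 58 chicks. SOCS3 had a residual SD of 0.39, and the other 5 members had 0.17 (SOCS5) to 0.29 (CISH), against a median of 0.25 over all probe sets. SOCS2 and SOCS4 had overall means of 5.15 and 5.21, under the 6.26 below which 40% of all probe set means fall. Whether these 2 transcripts were detected is not known, so a small difference in them says little.

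SOCS3 had the largest CpG difference of the family at 3 h. Its log2 values in the 10 control chicks ran from 7.09 to 8.46, with a median of 7.51. In the 10 CpG chicks they ran from 7.44 to 9.38, with a median of 8.37. The groups overlapped, and 3 CpG chicks (the highest being chick 5 at 9.38 and chick 9 at 8.93) lay above every control. The means were 7.61 ± 0.44 (SD, n = 10) in controls and 8.34 ± 0.56 (n = 10) in CpG chicks.

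The SOCS3 difference at 3 h was 0.74 ± 0.17 (log2, SE), a 1.67-fold higher level with a 95% interval from 0.39 to 1.08. By unadjusted p (6.8e-05) SOCS3 ranked number 8 of 20804 probe sets, but limma's adjusted p was 0.168, so that it did not pass the threshold of 0.05. No probe set passed at this time, a share of 0% called, and so 0 of the 7 members, while 1037 (4.98%) had an unadjusted p under the threshold. Of the 7 members 1, SOCS3, had such an unadjusted p. Fitted beside the scores of 6 blood cell types, the difference was 1.00 ± 0.19 (adjusted p = 0.00853), and without CpG chick 2, the lowest of its group at 7.44, it was 0.84 (adjusted p = 0.0466). Leaving out each chick in turn gave 0.62 to 0.84, with adjusted p from 0.0466 to 0.368. In a fit of the 3 h arrays alone, where 0% of probe sets were called, the same 0.74 had an adjusted p of 0.766.

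SOCS1 did not follow SOCS3 at 3 h. Control values ran from 6.92 to 10.00 with a median of 8.54, and CpG values from 7.18 to 10.00 with a median of 7.94. Both groups were thus widely spread over nearly the same range. The difference was -0.15 ± 0.30 (adjusted p = 0.978), and its 95% interval from -0.75 to 0.44 leaves room for a moderate change either way. Its sign was not stable: it was 0.02 without control chick 75 and 0.39 in a fit that includes the 6 cell type scores, neither past the threshold. Control chick 75 and CpG chick 5 were the highest of their groups in both SOCS1 and SOCS3.

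**Figure D1:**
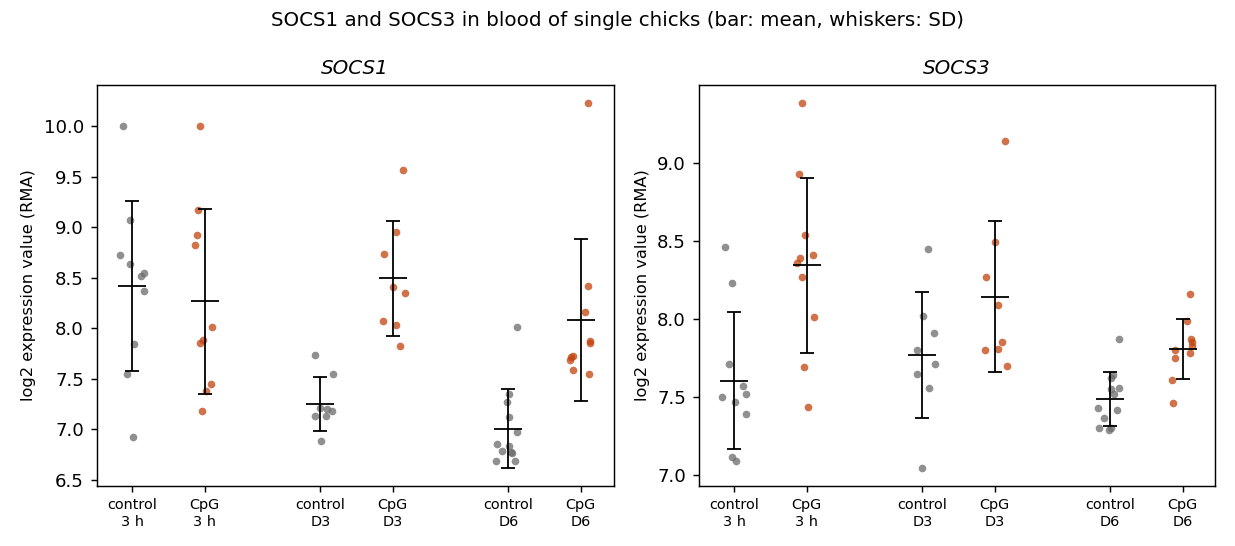
Log2 expression values (RMA, vertical axes) of SOCS1 and SOCS3 in single chicks, with control chicks in grey and CpG chicks in orange at 3 h, D3 and D6. Points are chicks, long bars are group means and whiskers are SD. SOCS1 is spread from 6.92 to 10.00 at 3 h, where SOCS3 has its largest mean difference (0.74), and all 8 CpG chicks lie above all 8 controls in SOCS1 at D3.

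At D3 SOCS1 separated the treatments completely. Control values ran from 6.88 to 7.73 with a median of 7.19, and CpG values from 7.82 to 9.57 with a median of 8.38. The lowest CpG value (chick 18) was above the highest control value. Such a separation with every CpG chick higher was seen in 24 probe sets, 0.115% of all.

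The means of SOCS1 at D3 were 7.25 ± 0.27 (SD, n = 8) in controls and 8.49 ± 0.57 (n = 8) in CpG chicks, a difference of 1.24 ± 0.33 or 2.37-fold (95% interval 0.58 to 1.90). With the spread shared over all 6 groups limma gave an unadjusted p of 0.000402 and an adjusted p of 0.0792, so that SOCS1 was not called. In a fit of the 16 arrays of D3 alone, whose 2 groups were tighter than those of 3 h, the same difference was called (adjusted p = 0.0326), among 9 probe sets or 0.0433%. Without the 4 arrays that stood apart it was 1.16 (adjusted p = 0.0624). In total 0.312% of probe sets were called at D3, and 0 of the 7 members. An unadjusted p under the threshold was found in 2 members, SOCS1 and CISH, and in 15.4% of all probe sets.

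The level of SOCS1 in CpG chicks at D3 was close to that of the 3 h groups. It exceeded the 3 h control mean by 0.07 ± 0.31 (adjusted p = 0.913), and it was the controls whose values were lower at D3 than at 3 h. The order of the SOCS1 group means was CpG at D3 (8.49), control at 3 h (8.42), CpG at 3 h (8.27), CpG at D6 (8.08), control at D3 (7.25) and control at D6 (7.01). No 2 neighbours in that order differed past the threshold, and the widest gap, 0.83 between CpG at D6 and control at D3, had an adjusted p of 0.0802. Of the 15 pairs of groups 6 passed.

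At D6 SOCS1 was the 1 member called, and it was higher in CpG chicks than in controls. Control values ran from 6.68 to 8.01 with a median of 6.84, and CpG values from 7.55 to 10.23 with a median of 7.78. The groups overlapped through 1 control, chick 102 at 8.01, since the next control was at 7.35 and every CpG chick lay above that. The means were 7.01 ± 0.39 (SD, n = 12) and 8.08 ± 0.80 (n = 10).

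The SOCS1 difference at D6 was 1.07 ± 0.28 or 2.10-fold (95% interval 0.51 to 1.64, limma adjusted p = 0.0263). At D6 2.11% of probe sets were called, and 1.52% were called higher. The call of SOCS1 rested on single chicks: the difference was 0.83 (adjusted p = 0.0809) without CpG chick 31, whose SOCS1 value was the highest of all 58 chicks, and 1.03 (adjusted p = 0.0556) without CpG chick 28. Without the 4 arrays that stood apart it was 0.83 (adjusted p = 0.0616). From 3 h to D6 SOCS1 fell by 1.41 in controls and differed by -0.19 ± 0.30 (adjusted p = 0.624) in CpG chicks.

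The SOCS3 difference between treatments had smaller estimates at D3 and D6, but its change from 3 h did not pass when tested. At D3 control values ran from 7.05 to 8.45 with a median of 7.76 and CpG values from 7.70 to 9.14 with a median of 7.97, a difference of 0.37 ± 0.19 (adjusted p = 0.336), and 0.21 (adjusted p = 0.602) without the 4 arrays that stood apart. At D6 control values ran from 7.29 to 7.87 with a median of 7.48 and CpG values from 7.46 to 8.16 with a median of 7.81, a difference of 0.32 ± 0.16 (adjusted p = 0.376). The groups overlapped at both times. In a fit of the D6 arrays alone, where SOCS3 varied little (SD 0.17 and 0.19), the same 0.32 was called (adjusted p = 0.0301), among 589 probe sets or 2.83%. Fitted beside the 6 cell type scores it was 0.04 ± 0.20 (adjusted p = 0.979).

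The group order of SOCS3 put the 3 CpG groups on top, with 8.34 at 3 h, 8.14 at D3 and 7.81 at D6, above the controls at D3 (7.77), 3 h (7.61) and D6 (7.49). No neighbouring means differed past the threshold. Of the 15 pairs 5 passed, among them the fall in CpG chicks from 3 h to D6 by 0.53 ± 0.17 (adjusted p = 0.00949). Beside the cell type scores that change was -0.37 (adjusted p = 0.28).

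Whether the effect of CpG changed between times was tested directly. For SOCS1 the effect at D3 exceeded that at 3 h by 1.40 ± 0.44 (95% interval 0.51 to 2.28, unadjusted p = 0.00259, adjusted p = 0.393). The effect at D6 exceeded that at 3 h by 1.23 ± 0.41 (95% interval 0.41 to 2.05, unadjusted p = 0.00401, adjusted p = 0.183). For SOCS3 the effect at D6 was lower than at 3 h by 0.42 (SE 0.24, adjusted p = 0.624), and from 3 h to D3 it differed by -0.36 ± 0.26 (adjusted p = 0.82). From D3 to D6 the effects changed by -0.17 ± 0.43 in SOCS1 and by -0.05 ± 0.25 in SOCS3. None of the 7 members passed in these contrasts, where 0.00961% (D3 against 3 h), 0% (D6 against D3) and 0.596% (D6 against 3 h) of probe sets were called.

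**Figure D2:**
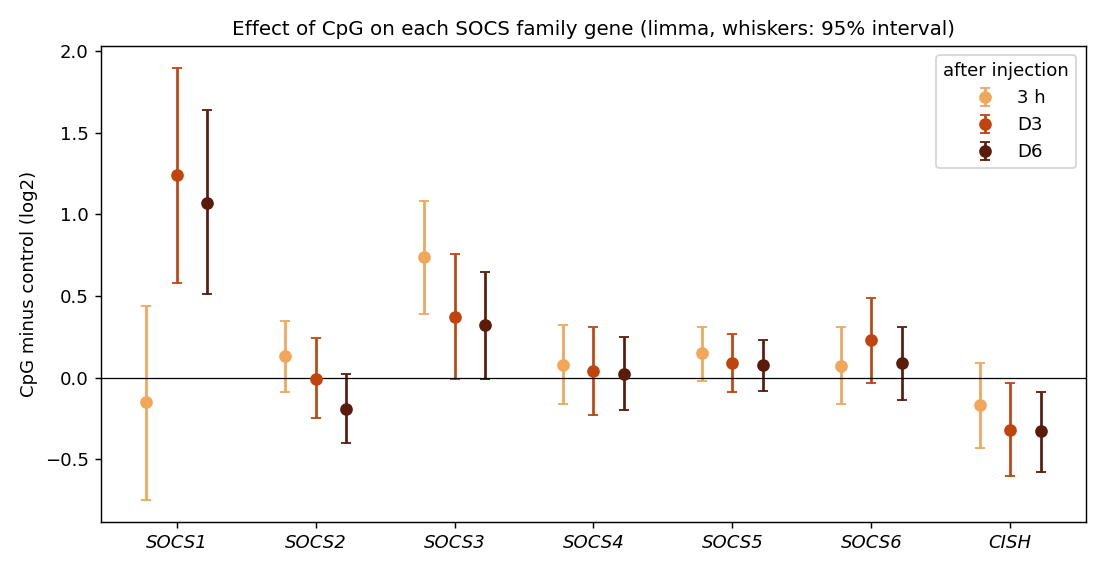
Difference between CpG and control chicks (log2, vertical axis) for each of the 7 genes at 3 h, D3 and D6. Points are limma estimates and whiskers are 95% intervals. SOCS3 has its largest value at 3 h (0.74) and SOCS1 at D3 (1.24) and D6 (1.07), while SOCS2, SOCS4, SOCS5 and SOCS6 stay between -0.19 and 0.23 and CISH lies between -0.17 and -0.33.

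The 2 genes were also set against each other within each chick by subtracting the SOCS3 value from the SOCS1 value. The zero of that difference has no meaning, since it holds the different brightness of the 2 probe sets, but its shift between groups can be read. At 3 h the difference averaged 0.81 ± 0.67 (SD, n = 10) in controls, with a range from -0.55 to 1.54, and -0.08 ± 0.57 (n = 10) in CpG chicks, with a range from -0.96 to 0.78. The CpG chicks were thus lower by 0.89, and 2 of them lay below every control.

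At D3 the shift ran the other way. The difference averaged -0.52 ± 0.54 (n = 8, from -1.32 to 0.16) in controls and 0.35 ± 0.42 (n = 8, from -0.07 to 1.14) in CpG chicks, a shift of 0.87 with 5 of 8 CpG chicks above every control. At D6 it averaged -0.48 ± 0.31 (n = 12, from -0.87 to 0.14) in controls and 0.27 ± 0.79 (n = 10, from -0.32 to 2.45) in CpG chicks, a shift of 0.75 with 4 of 10 above every control. Leaving out each chick in turn gave shifts from -1.04 to -0.79 at 3 h, from 0.76 to 0.97 at D3 and from 0.51 to 0.82 at D6. These shifts restate the CpG effects of the 2 genes given above, so their ranges add no separate support. No p-value is given, because this pair of genes was chosen with the pattern already known.

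**Figure D3:**
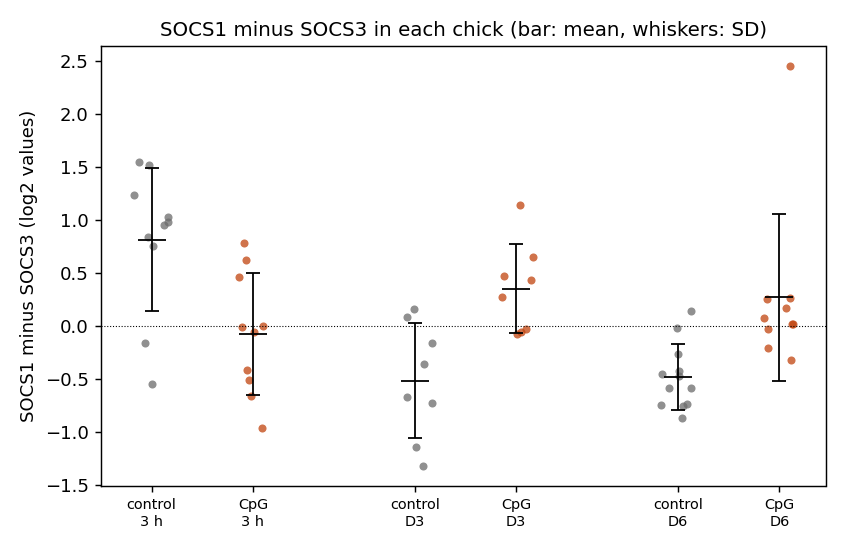
SOCS1 value minus SOCS3 value (log2, vertical axis) in single chicks, with control chicks in grey and CpG chicks in orange at 3 h, D3 and D6. Points are chicks, long bars are group means and whiskers are SD. The CpG mean lies under the control mean at 3 h (-0.08 against 0.81) and above it at D3 (0.35 against -0.52) and D6 (0.27 against -0.48).

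CISH, the founding member of the family and a classical STAT5 target, was the 1 member with lower means in CpG chicks at all 3 times, and it passed at none. At 3 h control values ran from 9.77 to 10.82 (median 10.55) and CpG values from 9.77 to 10.97 (median 10.39), a difference of -0.17 ± 0.13 (adjusted p = 0.973). At D3 control values ran from 10.78 to 11.41 (median 11) and CpG values from 9.84 to 11.25 (median 10.88), with 3 of 8 CpG chicks below every control. That difference was -0.32 ± 0.14 (adjusted p = 0.278).

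At D6 the CISH values of controls ran from 10.78 to 11.22 (median 10.99) and those of CpG chicks from 10.39 to 11.05 (median 10.65). There 8 of 10 CpG chicks lay below every control, and the difference was -0.33 ± 0.12 (unadjusted p = 0.00925, adjusted p = 0.157). Both groups were tight at this age, with SDs of 0.15 in controls and 0.20 in CpG chicks. The D6 arrays fitted alone gave the same -0.33 as a call (adjusted p = 0.0202; 2.83% of probe sets called). Without the 4 arrays that stood apart, which include the lowest CISH control at 3 h, the differences were -0.26, -0.34 and -0.30 at the 3 times (adjusted p of 0.993, 0.197 and 0.135).

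SOCS2, which in mice restrains growth hormone signalling, and SOCS4, a ligase adaptor linked to the EGF receptor, showed small differences at a low signal. SOCS2 differed by 0.13 ± 0.11 at 3 h (adjusted p = 0.975), by -0.01 ± 0.12 at D3 (0.978) and by -0.19 ± 0.10 at D6 (0.419). Its D6 controls ran from 4.98 to 5.88 and its D6 CpG chicks from 4.78 to 5.83. SOCS4 differed by 0.08 ± 0.12, 0.04 ± 0.13 and 0.02 ± 0.11 at the 3 times, with adjusted p of 0.977, 0.914 and 0.963.

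SOCS5 and SOCS6 showed small differences as well. SOCS5, which is linked to IL4 and EGF receptor signalling, differed by 0.15 ± 0.08 at 3 h, 0.09 ± 0.09 at D3 and 0.08 ± 0.08 at D6, and the highest upper bound of the 3 intervals was 0.31. SOCS6, which binds the receptor kinase KIT, differed by 0.07 ± 0.12, 0.23 ± 0.13 and 0.09 ± 0.11, with a highest upper bound of 0.49 at D3. Their CpG and control values overlapped at every time, and their adjusted p ranged from 0.386 to 0.977. Over all 7 members the median difference was 0.08 at 3 h, 0.09 at D3 and 0.08 at D6, beside a median of -0.01 over all 11528 genes at each time.

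**Figure D4:**
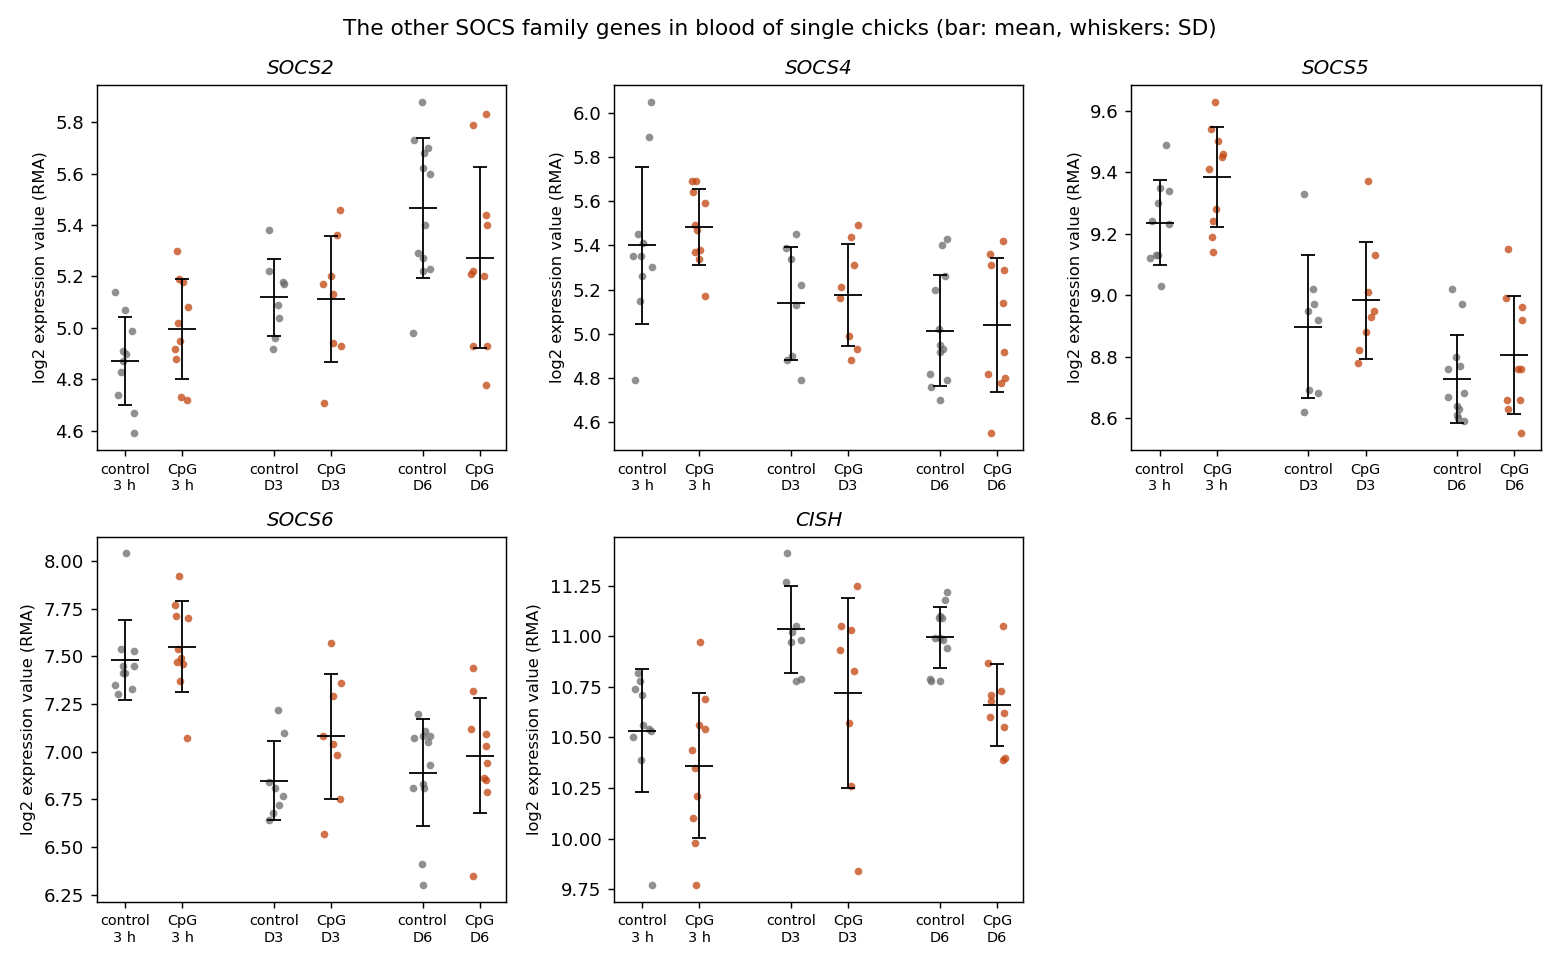
Log2 expression values (RMA, vertical axes) of SOCS2, SOCS4, SOCS5, SOCS6 and CISH in single chicks, with control chicks in grey and CpG chicks in orange at 3 h, D3 and D6. Points are chicks, long bars are group means and whiskers are SD. SOCS5 and SOCS6 are higher at 3 h than at D6 in both treatments, SOCS2 is higher at D6, and 8 of 10 CpG chicks lie below every control in CISH at D6.

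More members were called between ages than between treatments. In control chicks 4 of 7 members passed from 3 h to D3 (1 up, 3 down), where 24.8% of all probe sets passed, and 6 of 7 passed from 3 h to D6 (2 up, 4 down), where 48% passed. In CpG chicks the counts were 2 of 7 (both down; 19.4% of probe sets) from 3 h to D3 and 5 of 7 (1 up, 4 down; 44.6%) from 3 h to D6. From D3 to D6 1 member passed in controls (14.7% of probe sets) and 0 in CpG chicks (27.1%). With so many probe sets passing, these counts single out nothing about the family.

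SOCS6 fell with age in both treatments. In controls its values ran from 7.30 to 8.04 at 3 h, from 6.64 to 7.22 at D3 and from 6.30 to 7.20 at D6, so that every older control lay below every 3 h control. Such a separation held for 1.37% of probe sets at D3 and 4.65% at D6. SOCS6 fell by 0.63 (SE 0.12, adjusted p = 8.29e-05) to D3 and by 0.59 (SE 0.11, adjusted p = 1.94e-05) to D6. In CpG chicks, whose 3 h values ran from 7.07 to 7.92, it fell by 0.47 (SE 0.12, adjusted p = 0.00393) to D3 and by 0.57 (SE 0.12, adjusted p = 8.77e-05) to D6. Beside the 6 cell type scores the control change to D3 was still called (-0.69, adjusted p = 0.0179). The control change to D6 (-0.47, adjusted p = 0.131) and the CpG changes to D3 (-0.61, adjusted p = 0.0513) and D6 (-0.37, adjusted p = 0.0971) were not.

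SOCS5 fell as well. Controls ran from 9.03 to 9.49 at 3 h, 8.62 to 9.33 at D3 and 8.59 to 9.02 at D6, and all 12 D6 controls lay below every 3 h control. The fall was 0.34 (log2; SE 0.09, adjusted p = 0.00188) to D3 and 0.51 (SE 0.08, adjusted p = 2.36e-07) to D6. CpG chicks ran from 9.14 to 9.63 at 3 h and from 8.55 to 9.15 at D6, a fall by 0.58 (SE 0.08, adjusted p = 7.18e-08), and 9 of 10 at D6 lay below every 3 h CpG chick. SOCS4 fell by 0.39 in controls (SE 0.11, adjusted p = 0.00426) and by 0.44 in CpG chicks (SE 0.12, adjusted p = 0.00213) from 3 h to D6. Beside the cell type scores these changes of SOCS4 were -0.28 (adjusted p = 0.421) and -0.34 (adjusted p = 0.129).

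SOCS1 fell with age in controls. The fall was 1.17 (log2; SE 0.31, adjusted p = 0.00343) from 3 h to D3 and 1.41 (SE 0.28, adjusted p = 4e-05) from 3 h to D6, where 7 of 12 D6 controls lay below every 3 h control. In CpG chicks SOCS1 differed by 0.23 ± 0.31 (adjusted p = 0.702) from 3 h to D3 and by -0.19 ± 0.30 (adjusted p = 0.624) to D6. The difference between these age courses is the change of the CpG effect given above, which did not pass. In a fit that includes the 6 cell type scores the control differences were -0.25 (adjusted p = 0.824) at D3 and -0.16 (adjusted p = 0.887) at D6.

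SOCS2 and CISH rose with age in controls. SOCS2 ran from 4.59 to 5.14 at 3 h and from 4.98 to 5.88 at D6, with 11 of 12 D6 controls above every 3 h control, and rose by 0.60 ± 0.10 (adjusted p = 4.43e-06). Its step from D3 to D6 was 0.35 ± 0.11 (adjusted p = 0.0284). That step was 0.29 (adjusted p = 0.0822) when quantile normalization was repeated and 0.34 (adjusted p = 0.266) beside the cell type scores. CISH ran from 9.77 to 10.82 at 3 h, and rose by 0.50 ± 0.14 to D3 (adjusted p = 0.00417) and by 0.46 ± 0.12 to D6 (adjusted p = 0.00177), with 9 of 12 D6 controls above every 3 h control. Beside the cell type scores the CISH changes were 0.32 (adjusted p = 0.4) and 0.35 (adjusted p = 0.355), and without the 4 arrays that stood apart 0.36 (adjusted p = 0.0301) and 0.37 (adjusted p = 0.00461).

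In CpG chicks SOCS2 rose by 0.28 ± 0.11 (adjusted p = 0.0347) from 3 h to D6, a call lost in 4 other fits. These gave 0.28 with the arrays of the 2 groups alone (adjusted p = 0.073), 0.25 with median centring (adjusted p = 0.0618), 0.19 with repeated quantile normalization (adjusted p = 0.193) and 0.13 beside the cell type scores (adjusted p = 0.621). CISH differed by 0.30 ± 0.13 (adjusted p = 0.0536), and by 0.33 (adjusted p = 0.019) without the 4 arrays that stood apart. SOCS3 was the 1 member with no called age change in controls, with 0.16 from 3 h to D3 and -0.12 from 3 h to D6 (adjusted p of 0.573 and 0.572). Beside the cell type scores its control change from 3 h to D6 turned to 0.59, so a stable level with age is not shown.

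Blood cell markers differed between the same groups. At D3 5 of 11 measured heterophil markers and 1 of 8 monocyte markers were called higher in CpG chicks, and at D6 4 of 11 and 4 of 8. Of all probe sets 0.312% were called at D3 and 2.11% at D6. No marker was called at 3 h, where 0% of probe sets were called, so equal levels are not shown. At 3 h the monocyte score averaged 0.41 ± 0.51 (SD, n = 10) in controls and -0.19 ± 0.41 (n = 10) in CpG chicks. The heterophil score averaged 0.15 ± 0.66 and -0.07 ± 0.54. These score differences were not tested. The marker calls were not refitted without the 4 arrays that stood apart. Among those arrays, CpG chick 20 (2.4 and 1.12) and control chick 86 (0.95 and 0.81) had the highest heterophil and monocyte scores of their D3 groups. The summed log2 level of the 11 heterophil markers at D3 ran from 79 to 91.6 over the controls and from 88.4 to 105.3 over the CpG chicks, and from 72.3 to 80.5 and from 74.6 to 95.5 at D6. That of the 8 monocyte markers ran from 52.4 to 58.1 and from 55.1 to 60.1 at D3, and from 51.3 to 54.3 and from 53.8 to 58.8 at D6. RMA values have no true 0. The dimmest markers were NCF4 (heterophil) and MRC1 (monocyte), with highest group means of 6.57 and 4.71.

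Of the other lists, 1 of 10 thrombocyte markers was called higher at D3 and 3 at D6, and 1 of 14 erythroid markers was lower at D6. No B cell (10), T cell (13) or NK cell (3) marker was called. Many of these had a low signal. Group means under 6.26 were found for 5 B cell, 3 to 6 T cell and 1 to 2 NK cell markers, depending on the group. Whether those were detected is not known, so unchanged lymphocytes are not shown. In a fit that includes the 6 cell type scores the CpG difference of SOCS1 was 1.19 ± 0.40 at D3 (adjusted p = 0.341) and 0.56 ± 0.34 at D6 (adjusted p = 0.671). The part of the cell types in these results was not tested beyond that fit.

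SOCS1 and SOCS3 varied together between chicks of the same group. With group means subtracted, Pearson's r was 0.55 over the 58 chicks (permutation p within groups = 6e-05, adjusted p = 0.00126 over the 21 pairs of members) and Spearman's rho was 0.39 (p = 0.00487, adjusted p = 0.102), both two-sided. Without the 2 chicks farthest from the median of SOCS1, r was again 0.55, and without the 4 arrays that stood apart it was 0.60. Within groups r was 0.61 and 0.81 at 3 h (control, CpG), -0.30 and 0.69 at D3 and 0.63 and 0.19 at D6. It thus did not hold in the 8 controls at D3. In the 9 CpG chicks left at D6 without the arrays that stood apart it was 0.72. The other groups were not refitted in this way. Among the CpG chicks at D3, chick 20, whose array stood apart, had the highest values of both SOCS1 (9.57) and SOCS3 (9.14). How far the 0.69 of that group rests on this chick was not tested. None of the other 20 pairs passed. All chicks of a group share their sampling day, and the pairs share each chick's array.

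SOCS1 also varied together with STAT3, the transcription factor activated by IL6 and G-CSF receptors. With group means subtracted, r was 0.84 over the 58 chicks and rho was 0.82, each with a permutation p of 1e-05, the smallest that 100000 permutations can give. Adjusted over 26 relations, which were chosen after values were seen, these were 0.00026 and 0.00013. Within groups r ran from 0.29 in controls at D3 to 0.99 in CpG chicks at D6, and without the 2 farthest chicks it was 0.77. Without the 4 arrays that stood apart r was 0.86 over 54 chicks. It was then 0.91 in the 9 CpG chicks left at D6, the only group looked at in this way. For SOCS3 and STAT3 r was 0.44 (adjusted p = 0.00889) and rho 0.34 (adjusted p = 0.0388). STAT3 itself was higher in CpG chicks at D6 by 0.50 ± 0.13 (adjusted p = 0.0285, 7 of 10 above every control). Without the 4 arrays that stood apart this was 0.38 (adjusted p = 0.0485). The STAT3 difference was -0.17 ± 0.14 at 3 h and 0.33 ± 0.16 at D3. Its group means at 3 h and D6 were 10.66 and 9.96 in controls, and 10.49 and 10.47 in CpG chicks.

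IRF1, an interferon-induced transcription factor, varied with both genes. Its r was 0.58 with SOCS1 (rho 0.59; adjusted p of 0.00039 and 0.00013) and 0.55 with SOCS3 (rho 0.45; adjusted p of 0.00091 and 0.00633). With SOCS1 it lay between -0.24 (CpG chicks at D6) and 0.83 within groups, and was above 0 in 4 of 6. With SOCS3 it lay between 0.26 and 0.87. Without the 4 arrays that stood apart, r of IRF1 with SOCS1 was 0.76 over 54 chicks. It was then 0.86 in the 9 CpG chicks left at D6, and the other groups were not looked at in this way. MX1, an antiviral effector, had r of 0.46 with SOCS1 and 0.38 with SOCS3 (adjusted p of 0.00091 and 0.0172), and with SOCS1 it ran from -0.96 in controls at D3 to 0.87 in CpG chicks at 3 h.

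The monocyte score had r of 0.41 with SOCS1 (adjusted p = 0.0141, rho 0.33, adjusted p = 0.0515) and 0.39 with SOCS3 (adjusted p = 0.0172, rho 0.39, adjusted p = 0.0186). These fell to 0.27 and 0.26 without the 2 farthest chicks. The heterophil score had r of 0.23 with SOCS1 and 0.29 with SOCS3 (adjusted p of 0.11 for SOCS3), with a rho of 0.36 for SOCS3 that passed (adjusted p = 0.0289). For SOCS1 and IL6, whose signal was low, r was 0.33 (adjusted p = 0.0476) and rho 0.23 (adjusted p = 0.17). For SOCS3 and CSF3R, the G-CSF receptor, r was 0.29 (adjusted p = 0.123) and rho 0.40 (adjusted p = 0.0159). Of the relations not named here none passed by r or by rho.

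**Figure D5:**
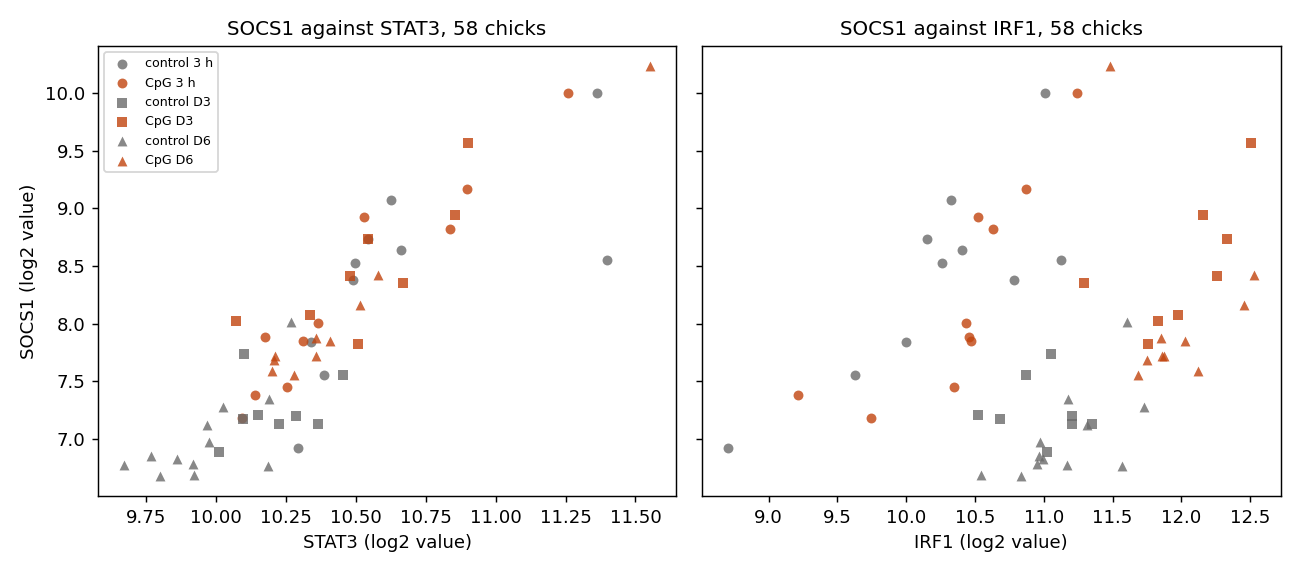
SOCS1 (log2 value, vertical axis) against STAT3 and against IRF1 (log2 values, horizontal axes) in 58 chicks. Circles are chicks at 3 h, squares at D3 and triangles at D6, with controls in grey and CpG chicks in orange. SOCS1 rises with STAT3 across all groups, and the group means of IRF1 were 10.24 and 10.39 at 3 h, 10.99 and 11.15 in controls at D3 and D6, and 12.01 and 11.96 in CpG chicks at D3 and D6.

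The genes most like each member were taken as the 5 with the highest r among 11527 other genes over the 58 chicks, with group means subtracted. They are given as a description with no p-value, and all points share their arrays. For SOCS1 these were NANP (0.89), a phosphatase of sialic acid synthesis, NAMPTP1 (0.88), CCDC167 (0.86), STAT3 (0.84) and EIF2AK2 (0.84), an interferon-induced kinase that senses double-stranded RNA. With group means kept the leaders were NAMPTP1 (0.90), STAT3 (0.90), LY96 (0.88), a partner of TLR4, NANP (0.88) and SLC26A2 (0.84), a sulphate transporter. Of these 7 genes STAT3 and LY96 (1.06, adjusted p = 0.035) were called higher in CpG chicks at D6. Without the 4 arrays that stood apart LY96 stood at 0.84 (adjusted p = 0.0873).

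SOCS3 had weaker companions. These were ACOD1 (0.70), which makes itaconate in activated macrophages, MLKL (0.65), the executor of necroptosis, IRF8 (0.64), a transcription factor of myeloid cells, BST1 (0.62) and ADAMDEC1 (0.62). With group means kept GALC (0.72) and IL1R2 (0.69), a decoy receptor of IL1, entered beside MLKL, ACOD1 and BST1. At 3 h MLKL differed by 0.60 (adjusted p = 0.168), IL1R2 by 1.11 (adjusted p = 0.343) and ACOD1 by 0.03. At D6 ACOD1 (1.19, adjusted p = 0.0136) and BST1 (0.92, adjusted p = 0.0177) were called higher in CpG chicks.

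CISH was most like EIF4EBP1 (0.67), a repressor of translation initiation, MAPKAPK3 (0.66), DMAP1 (0.64), HSD17B7 (0.62), an enzyme of cholesterol synthesis, and DPEP2 (0.61). None of these 5 was called in a CpG effect. With group means kept, SMOC1 (0.75) was among the leaders. It was called lower in CpG chicks than in controls of the same time. The differences were -1.43 at D3 (adjusted p = 0.0343) and -1.09 at D6 (adjusted p = 0.0267). Without the 4 arrays that stood apart the D6 difference was -0.86 (adjusted p = 0.0627). SOCS2, with its low signal, reached no more than 0.50 (SLC9A9), followed by ST8SIA1 (0.49), GAS7 (0.48), CD4 (0.48) and ARF1 (0.47).

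The other genes of the pathway were counted from lists of known roles, upstream first. Beside these counts, 0%, 0.312% and 2.11% of all probe sets were called in the CpG effect at 3 h, D3 and D6. Among the ligands, 1 of 12 measured genes was called in a CpG effect. This was IL15, a cytokine of lymphocyte maintenance, higher in CpG chicks at D6 by 1.26 ± 0.28 (adjusted p = 0.00561). At D3 IL15 stood at 1.08 ± 0.32 (adjusted p = 0.103). IL6 differed by -0.05, -0.12 and -0.05 at the 3 times and IFNG by -0.09, -0.20 and 0.15. The group means of IL6 lay between 5.00 and 5.18 and those of IFNG between 2.96 and 3.27, so that detection of either is not known.

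Among the receptors, CSF3R, the receptor of G-CSF and a marker of heterophils, had a negative value at 3 h (-0.76 ± 0.20, adjusted p = 0.362). At D6 CSF3R was higher in CpG chicks by 0.76 ± 0.19 (adjusted p = 0.0186). It was the 1 called of 9 measured receptors of the gp130 and G-CSF group. Of 10 receptors of the common gamma and beta chain group, IL4R was higher in CpG chicks at D3 (0.44 ± 0.10, adjusted p = 0.028) and D6 (0.33 ± 0.08, adjusted p = 0.0216). Also higher at D6 were CSF2RA (0.79 ± 0.20, adjusted p = 0.02) and CRLF2 (0.51 ± 0.14, adjusted p = 0.0377). The signal of CRLF2 was low, at a mean of 4.69.

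No receptor of interferon was called. Of the 4 measured, IFNAR2 had the smallest p, with 0.27 ± 0.12 at D3 (adjusted p = 0.256), and IFNAR1 had 0.18 ± 0.10 (adjusted p = 0.382). In the list of receptors for growth hormone, prolactin, erythropoietin and thrombopoietin only PRLR was measured, at 0.06, 0.06 and -0.06.

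None of the 4 JAK kinases was called. TYK2 had the smallest p, at -0.32 ± 0.09 at D3 (adjusted p = 0.0968), JAK1 stood at -0.13 ± 0.06 at D6 (adjusted p = 0.319), and JAK2 at 0.10, 0.13 and 0.19 at the 3 times. Of the 7 STAT genes 2 were measured, STAT3 above and STAT5A, which stood at 0.27 ± 0.10 at D6 (adjusted p = 0.152). Among 10 measured inhibitors outside the family, the phosphatase genes PTPN6 (0.95 ± 0.20, adjusted p = 0.00378) and PTPRC (0.59 ± 0.11, adjusted p = 0.00155) were higher in CpG chicks at D6. Each had 9 of 10 CpG chicks above every control. Both are expressed widely in white blood cells.

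Of the 8 measured partners of the SOCS box in the ubiquitin ligase none was called. RNF7, the ring subunit that works with cullin 5, stood at 0.37 ± 0.11 at D3 (adjusted p = 0.0983) with 6 of 8 CpG chicks above every control, and CUL2 at 0.33 ± 0.14 (adjusted p = 0.228). Without the 4 arrays that stood apart RNF7 was called at D3 (0.39, adjusted p = 0.0461) and CUL2 at D6 (0.35, adjusted p = 0.0241). The list had medians of 0.11, 0.21 and 0.07 at 3 h, D3 and D6.

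Downstream, the interferon-induced genes had medians of -0.08 at 3 h, 0.71 at D3 and 0.68 at D6 over 24 measured genes, beside -0.01 over all genes. Called higher were 0, 2 and 5 of them. Of all probe sets 0%, 0.312% and 2.11% were called in either direction at these times, and 1.52% were called higher at D6. IRF1 was higher in CpG chicks by 1.03 ± 0.23 at D3 (adjusted p = 0.0191) and by 0.81 ± 0.19 at D6 (adjusted p = 0.0133). For TAP2, a peptide transporter of antigen presentation, these differences were 0.63 ± 0.14 (adjusted p = 0.0153) and 0.61 ± 0.12 (adjusted p = 0.0012). MX1 (2.25 ± 0.47, adjusted p = 0.00383) and DDX60 (2.10 ± 0.44, adjusted p = 0.00377), both antiviral genes, were higher at D6. ADAR, an RNA-editing enzyme, was higher at D6 by 0.41 ± 0.12 (adjusted p = 0.0442).

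The targets of STAT3 had medians of -0.06, -0.03 and 0.07 over 13 measured genes. Some of them had a low signal, such as FGB with group means between 4.23 and 4.76, so that their detection is not known. LBP, an acute phase protein that binds lipopolysaccharide, was the 1 called. At D6 it was higher in CpG chicks by 1.10 ± 0.19 (adjusted p = 0.000393), with all 10 above all 12 controls. The share of probe sets so separated at D6 is not given here. The group means of LBP were 9.25 and 8.76 at 3 h (control, CpG) and 7.54 and 8.64 at D6. The targets of STAT5, a list of 10 measured genes that includes CISH and SOCS2, had medians of 0.00, -0.01 and -0.05. None was called, and next to CISH the smallest p was that of CCND1, a cyclin, at -0.25 ± 0.11 at D6 (adjusted p = 0.293).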

How the data were processed

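Blood RNA of 58 chicks was hybridised to Affymetrix-type gene arrays after WT PLUS labelling, per the labels' protocols. The authors deposited log2 values made with RMA, per the submitters' processing notes. The version and settings of RMA, the genome build of the probes and the signal over background are each not given in the sources used, and the number of arrays limits the precision. The values were used as deposited.

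Groups follow the treatment and time in each chick's label. Of 20804 probe sets, 12300 have 1 symbol in the platform table, 256 several and 8248 none. Symbols of 11727 were checked by Entrez identifier against the RefSeq gene table of assembly GRCg7b, used for names alone. For a gene with several probe sets the one with the highest mean stood for it.

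Testing used limma 3.58.1 in R 4.3.3, whose lmFit and eBayes estimated a mean for each group from all 58 arrays and 20804 probe sets, with 52 degrees of freedom left in the residuals and 4.17 added by the prior. For each of 12 contrasts two-sided p-values were adjusted by Benjamini-Hochberg over all probe sets, and a gene was called, and said to rise or fall, at an adjusted p under 0.05. SE and intervals are limma's. Correlations between chicks were tested with 100000 permutations within groups. A cell type score is the mean z-score of a marker list over its measured genes. An array stood apart when its median correlation with its group lay more than 3 scaled MADs under the median of all arrays. The steps were tested on simulated data.

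The members, pathway lists, marker lists and tests were chosen with earlier results of these data known. The named genes are all members, and of each pathway list up to 4 called genes, or the 2 with the smallest p where none was called, with IRF1, STAT3, IL6, IFNG, JAK2 and CSF3R always, and the 5 genes most like SOCS1, SOCS2, SOCS3 and CISH. Nothing in the labels says more of how the chicks were housed or hatched, so p-values measure the spread between these chicks.

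The alternatives tried were dropping the dimmest 40% of probe sets, fitting just the arrays of a contrast, array weights, a prior that is trended and robust, median centring, repeated quantile normalization, 1 probe set per gene, the 6 cell type scores as covariates, the mean of W-linked probe sets as a covariate (sex is not labelled), fits without the arrays that stood apart, and leaving out each chick in turn. Fits of pathway and companion genes, and correlations of SOCS1, without the arrays that stood apart were added after seeing the data.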

Additional observations from a re-analysis of the deposited data

Results flagged for a closer look

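Among 35 combinations of a member and a group of 8 or 10 chicks, 3 held a chick whose gap to its nearest neighbour was large for the range of the group by Dixon's criterion, which chance meets in about 1 of 20 groups. The 12 controls at D6 were not examined in this way. SOCS1 was at 10.23 in CpG chick 31 at D6, where the next chick was at 8.42, a gap of 0.675 of the range. SOCS6 was at 8.04 in control chick 81 at 3 h, where the next was at 7.54 (0.672 of the range). CISH was at 9.77 in control chick 74 at 3 h, the lowest of its group, where the next was at 10.39 (0.592 of the range). The arrays of chicks 31 and 74 are also among the 4 that correlated least with their groups.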

How the results depend on the processing

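No paired analysis was possible because the groups share no chick numbers. With the 6 cell type scores as covariates SOCS1 was at 0.39 at 3 h (reversed, adjusted p = 0.915) and 0.56 at D6 (adjusted p = 0.671), and SOCS3 at 3 h was called at 1.00 (adjusted p = 0.00853). The number of members called then was 1 at 3 h, 0 at D6, 2 and 2 for the control changes from 3 h to D3 and to D6, 0 for D3 to D6 in controls, and 1 and 1 for the same changes in CpG chicks, against 0, 1, 4, 6, 1, 2 and 5. Differences near 0 changed sign under it: SOCS1 in controls from D3 to D6 (0.09) and in CpG chicks from 3 h to D6 (0.02), SOCS4 at 3 h, D3 and D6 (0.00, -0.18, -0.07), SOCS5 at 3 h and D3 (-0.01, -0.11), SOCS6 at 3 h (-0.06), and SOCS3 in controls from 3 h to D6 (0.59). The cause of these changes was not tested.

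In fits of a contrast's own arrays SOCS1 at D3 (1.24, adjusted p = 0.0326) and SOCS3 at D6 (0.32, adjusted p = 0.0301) were called, and the members called were 1 at D3 and 3 at D6, where 0.0433% and 2.83% of probe sets were called. With array weights SOCS1 at D6 was 0.85 (adjusted p = 0.0512), and without the 4 arrays apart 0.83 (adjusted p = 0.0616), which left 0 members called in both. From D3 to D6 in controls 0 members were called after the filter on dim probe sets, which removes SOCS2, and after repeated quantile normalization. Signs also turned for SOCS2 at D3 (0.02 with array weights, 0.03 with repeated quantile normalization, 0.01 with median centring), SOCS4 at D6 (0.00 with array weights) and the change of the SOCS3 effect from D3 to D6 (0.00 with repeated quantile normalization, 0.11 without the arrays apart). CISH in CpG chicks was called from 3 h to D3 under 4 settings and from 3 h to D6 under 6.

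Probe sets called at 3 h were 8 with array weights, 1 with repeated quantile normalization and 5 with the scores, against 0. At D3 they were 9, 144, 0 and 123 in the own-array, weighted, score and reduced fits, against 65, and at D6 682 and 5 with weights and with scores, against 440. Leaving out 1 chick at a time gave SOCS1 -0.35 to 0.02 at 3 h, 1.09 to 1.34 at D3 and 0.83 to 1.16 at D6, and SOCS3 0.62 to 0.84, 0.23 to 0.47 and 0.28 to 0.36. SOCS2 at D3 ran from -0.06 to 0.05, and SOCS4 from -0.01 to 0.08 at D3 and from -0.02 to 0.08 at D6. Members called then numbered 0 to 1 at 3 h, 0 at D3 and 0 to 1 at D6. For pathway and companion genes, fits without the 4 arrays apart, added after seeing the data, kept 4 of 4 calls at D3 and 16 of 18 at D6, losing LY96 and SMOC1, and gained 1 and 4. No scaling moved the median of all genes by as much as 0.05. Detection of SOCS2 and SOCS4 is not known at their signal.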
